A study of Homo sapiens with 6 samples.

Results

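The aryl hydrocarbon receptor axis was described in the human breast cancer cell line MDA-MB-231, a triple-negative model of invasive growth, through 6 genes: AHR, AHRR, CYP1A1, CYP1B1, TIPARP and NQO1. The genes were found by their symbol in the annotation of the Affymetrix array, which gave 11 probe sets of 54613 tested, or 6 genes of 19775. The set was selected on the knockdown minus control contrast, in which AHRR had been called, so values in that contrast are given as a description with no test of their own. The 3 knockdown clones were single clones stably carrying a retroviral pSM2 vector with a hairpin against WASF3, an activator of branched actin growth, and the labels name 2 such hairpins. The 3 control clones were single clones that carried the empty pSM2 vector or a hairpin against GFP. The sources used here do not say which hairpin or vector a given clone carried. All 6 lines were puromycin resistant (1.0 µg/ml for 2 weeks), at passage 4, and grown with 10% fetal bovine serum, and each gave 1 array. A clone is 1 founder cell expanded, so the spread between clones includes differences between founders. The labels name no AHR ligand among the treatments.

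AHR is a transcription factor of the bHLH-PAS family that waits in the cytoplasm in a complex with HSP90 and co-chaperones. Bound by a planar aromatic ligand, it enters the nucleus, pairs with ARNT and binds xenobiotic response elements, where it raises the genes of phase I and phase II metabolism. Among its targets are its own brakes: AHRR, which competes for ARNT and the response elements, and TIPARP, a mono-ADP-ribosyltransferase that modifies AHR. CYP1A1 and CYP1B1 encode the monooxygenases that oxidise polycyclic aromatic hydrocarbons, and NQO1 encodes a quinone reductase that also answers to NRF2.

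The response element core GCGTG was searched on both strands in the 250 bases before each annotated transcript start, and windows of 5 of the 6 genes were found, CYP1B1 having no entry. The windows are from RefSeq, build GRCh38.p14. The 3 printed here are those of the repressor and the mono-ADP-ribosyltransferase, whose levels did not overlap between the groups, and of CYP1A1, the best known target, each at the gene's first start. Each line runs 5′ to 3′ on the gene's strand and ends at the base before the first start, and capitals mark the core, which reads CACGC where the match is on the opposite strand.
AHRR (chr5:321464-321713, plus strand): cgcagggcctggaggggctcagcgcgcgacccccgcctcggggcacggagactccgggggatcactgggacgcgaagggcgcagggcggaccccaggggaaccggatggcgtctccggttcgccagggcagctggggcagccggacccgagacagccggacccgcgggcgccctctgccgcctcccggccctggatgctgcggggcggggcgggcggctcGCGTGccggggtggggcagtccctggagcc
TIPARP (chr3:156674340-156674589, plus strand): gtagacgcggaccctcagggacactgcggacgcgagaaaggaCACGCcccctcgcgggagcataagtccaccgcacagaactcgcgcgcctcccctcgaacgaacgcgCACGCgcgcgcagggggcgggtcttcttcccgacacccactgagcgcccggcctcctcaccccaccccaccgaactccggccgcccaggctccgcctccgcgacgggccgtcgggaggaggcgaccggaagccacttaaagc
CYP1A1 (chr15:74725529-74725778, minus strand): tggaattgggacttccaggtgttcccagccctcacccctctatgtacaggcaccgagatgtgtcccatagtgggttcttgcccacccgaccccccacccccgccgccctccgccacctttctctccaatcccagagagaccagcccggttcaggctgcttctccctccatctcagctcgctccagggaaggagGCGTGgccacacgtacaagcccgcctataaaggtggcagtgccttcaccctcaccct
AHRR held 1 core in this window, 30 to 26 bases before the start, and it also matched the longer form TNGCGTG, which contains the core. TIPARP held 2 cores and CYP1A1 held 1, none of them in the longer form. RefSeq gives AHRR a second window at a later start, which held 2 cores, and TIPARP 2 further windows, which held 0. No core was found in the windows of AHR and NQO1, and TGACNNNGC, the core of the antioxidant response element, was not found in any window of the 5 genes. Of all 35116 windows of this length, 32.2% held GCGTG, 4.52% held TNGCGTG and 10.9% held TGACNNNGC. The core is short and is also one form of the hypoxia response element core, so a match is a description of the letters and not a site. Sequence outside these 250 bases was not searched, so the lack of a match does not mean that a gene lacks the element.

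Values are log2 RMA signals, the authors' background-corrected and quantile-normalised summary of each probe set, and a difference is knockdown minus control with the standard error (SE) of the limma fit. Levels of different probe sets cannot be compared, because probes differ in how well they bind. No detection call was used, so no level is shown to be above background. WASF3 itself read 5.40, 5.80 and 4.52 in knockdown clones 1, 2 and 3 and 6.77, 6.42 and 6.59 in control clones 1, 2 and 3. Each knockdown clone lay below every control clone (−1.35, SE 0.29), although the difference missed the threshold (limma adjusted p = 0.102, exact two-sided permutation p = 0.1, and 3 against 3 can give none smaller). It was −0.99 and passed when knockdown clone 3 was left out (limma adjusted p = 0.0175). The markers fixed for the cell line (VIM, CD44, CAV1, AXL, MSN and ZEB1) had group means between 9.83 and 14.28, and 0 of 6 were called in limma (0 also at an unadjusted p under 0.05). Of the luminal and epithelial markers (ESR1, PGR, GATA3, CDH1, FOXA1 and KRT19) 0 of 6 were called and 2 had an unadjusted p under 0.05 (KRT19 at −0.38 and FOXA1 at −0.26), and the mean level of the 6 per array was 5.69 to 6.50 in knockdown and 5.97 to 6.15 in control clones. FOXA1 read only 2.90 to 3.39, a level not shown to be above background. The difference was negative on 1 of 2 probe sets of FOXA1 and on 2 of 2 of KRT19. CDH1, the epithelial cadherin, read 7.33, 4.44 and 4.47 in knockdown clones 1, 2 and 3 and 4.59 to 5.19 in control clones, so clone 1 was 5.25-fold above the control mean. These values are from its brightest probe set, and only 1 of its 2 probe sets had a positive group difference. Of 5 measured leukocyte markers 0 were called, with mean levels of 4.27 to 4.61 in knockdown and 4.50 to 4.52 in control clones. RNA quality was followed by the signal of the 3′ end less that of the 5′ end of GAPDH and ACTB (the end index), which was 2.11, 1.62 and 1.66 in knockdown clones 1, 2 and 3 and 1.13, 1.47 and 1.26 in the control clones. Each knockdown array thus had a higher index than every control array, and knockdown clone 1 had the highest.

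The receptor gene AHR was similar in the control clones and uneven in the knockdown clones. Its signal was 9.84, 9.80 and 9.71 in control clones 1, 2 and 3 and 9.98, 9.41 and 9.28 in knockdown clones 1, 2 and 3. Knockdown clone 1 lay above every control clone, at 114% of the control mean, while clones 2 and 3 lay below every control clone, at 76.9% and 70.6%. The groups therefore overlapped, with 9.56 ± 0.37 in knockdown and 9.78 ± 0.07 in control clones (mean ± SD, n = 3 each) and a difference of −0.23 (SE 0.18). Without knockdown clone 1 the difference was −0.44, and without clone 3 it was −0.09. With the end index as a covariate it was −0.71 (SE 0.22).

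AHRR, the repressor of the receptor, was the member with the clearest separation of the groups. Its only probe set read 7.13, 7.24 and 7.09 in control clones 1, 2 and 3 and 8.47, 7.95 and 8.15 in knockdown clones 1, 2 and 3. Every knockdown clone lay above every control clone, by 2.49-fold, 1.73-fold and 1.99-fold over the control mean. The group means were 8.19 ± 0.26 and 7.15 ± 0.08 (SD, n = 3 each), a difference of 1.03 (SE 0.14) or 2.05-fold. AHR and AHRR were not shifted alike: in knockdown clones 2 and 3 the receptor was below the controls and its repressor above them, and in clone 1 both were above. WASF3 was at 43.8%, 57.5% and 23.8% of the control mean in knockdown clones 1, 2 and 3. Clone 2 thus differed least from the controls in both WASF3 and AHRR. WASF3 was lowest in clone 3 and AHRR highest in clone 1. A relation between the levels of these genes was not tested. The higher end index was in the same clones as the higher AHRR. With the index as a covariate the difference of AHRR was 0.64 (SE 0.17). On its brightest probe set CDH1 was also highest in knockdown clone 1, the clone with the highest AHRR, and its part in the result was not tested.

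TIPARP, the mono-ADP-ribosyltransferase induced by AHR, separated the groups in the opposite direction and by less. The signal was 10.54, 10.44 and 10.55 in control clones 1, 2 and 3 and 10.06, 10.27 and 10.18 in knockdown clones 1, 2 and 3. All 3 knockdown clones lay below the lowest control clone, at 73.0%, 84.9% and 79.8% of the control mean. The means were 10.17 ± 0.11 and 10.51 ± 0.06 (SD, n = 3 each) and the difference was −0.34 (SE 0.09), or −0.15 (SE 0.14) with the end index as a covariate. Knockdown clone 1, in which AHRR was highest, had the lowest TIPARP, and clone 2, in which AHRR was lowest of the 3, had the highest. The end index ranked these clones as AHRR did, at 2.11, 1.62 and 1.66 in clones 1, 2 and 3. A link between AHRR and TIPARP was not tested. The antisense transcript TIPARP-AS1 is read by its own probe set, at 3.44 ± 0.13 in knockdown and 3.42 ± 0.05 in control clones (SD, n = 3 each), levels not shown to be above background.

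**Figure D1:**
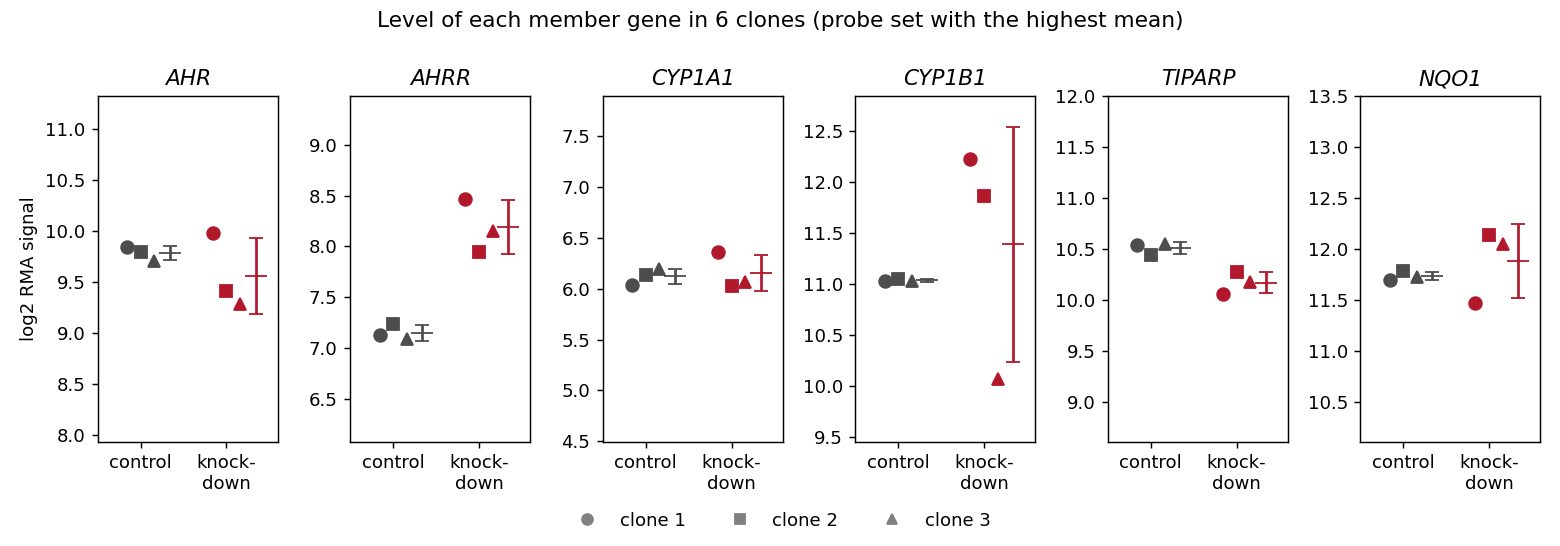
Level of each member gene (log2 RMA signal, vertical axis, same span in each panel) in 3 control clones (grey) and 3 knockdown clones (red), on the probe set with the highest mean. Marker shapes give the clone number, and the bars are mean ± SD. AHRR lies higher in every knockdown clone (7.95 to 8.47 against 7.09 to 7.24), TIPARP lower, and CYP1B1 on both sides of the controls.

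CYP1B1, a monooxygenase of hydrocarbons and oestrogens, differed most between the knockdown clones. On its brightest probe set the control clones read 11.03, 11.05 and 11.03, and knockdown clones 1, 2 and 3 read 12.23, 11.87 and 10.07. Clones 1 and 2 were thus 2.29-fold and 1.78-fold above the control mean and clone 3 was at 51.4% of it. The control clones were nearly equal, with a range of 0.024, while the knockdown clones spanned 2.16 log2 units. Among the 28513 probe sets with a mean log2 value above 5, 99.4% had a smaller range in the knockdown clones, and the median range was 0.38 in knockdown and 0.14 in control clones. The group difference of 0.36 (SE 0.49) lay near the value of no clone: it was 1.01 without knockdown clone 3, −0.06 without clone 1 and 0.12 without clone 2. With the end index as a covariate it turned to −0.56 (SE 0.78).

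Of the other 3 probe sets of CYP1B1, 2 showed the same order of clones. The second brightest read 12.09, 11.67 and 9.85 in knockdown clones 1, 2 and 3 and 10.82, 10.81 and 10.68 in the control clones. The third read 11.79, 11.46 and 9.65 in knockdown clones 1, 2 and 3 and 10.46, 10.34 and 10.41 in the control clones. Their differences from the control mean were 1.32 and 1.38 in clone 1, 0.90 and 1.05 in clone 2, and −0.91 and −0.76 in clone 3. The remaining probe set was dim, at 4.47, 3.97 and 4.31 in knockdown and 4.35, 4.34 and 4.35 in control clones, and did not show that order. These probe sets measure 1 gene and are not replicates of each other. The antisense transcript CYP1B1-AS1 had 2 dim probe sets, at 3.15 and 4.86 in knockdown and 3.15 and 4.99 in control clones, which are not shown to be above background.

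CYP1A1, the classical target of the activated receptor, showed little difference in signal, at a level not shown to be above background. It read 6.04, 6.13 and 6.19 in control clones 1, 2 and 3 and 6.36, 6.03 and 6.07 in knockdown clones 1, 2 and 3. The groups overlapped, with only knockdown clone 1 above the highest control, at 1.18-fold over the control mean. The difference was 0.03 (SE 0.11), with 6.15 ± 0.18 in knockdown and 6.12 ± 0.08 in control clones (SD, n = 3 each), and −0.24 (SE 0.16) with the end index as a covariate. In knockdown clones 1 and 2 CYP1B1 was higher than in controls by 1.20 and 0.83, while CYP1A1 was at 0.24 and −0.09. Without a detection call for CYP1A1, whether its transcript changed with that of CYP1B1 is not settled.

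NQO1, the quinone reductase, gave different orders of clones on its 3 probe sets. The brightest read 11.70, 11.78 and 11.72 in control clones and 11.47, 12.14 and 12.05 in knockdown clones 1, 2 and 3, so clone 1 was below and clones 2 and 3 were above every control. The dimmest of the 3 had the same pattern, at 10.10, 10.24 and 10.13 in control and 9.90, 10.53 and 10.46 in knockdown clones. The remaining one read 10.32, 10.43 and 10.39 in control and 10.82, 10.67 and 10.53 in knockdown clones, with clone 1 the highest and no overlap. The differences were 0.15 (SE 0.17), 0.14 (SE 0.17) and 0.30 (SE 0.10), and the disagreement in clone 1 leaves its NQO1 level unsettled. With the end index as a covariate the difference was 0.61 (SE 0.22) on the brightest and 0.54 (SE 0.23) on the dimmest probe set. On the one without overlap it fell to 0.09 (SE 0.15), so the probe sets moved in opposite directions.

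**Figure D2:**
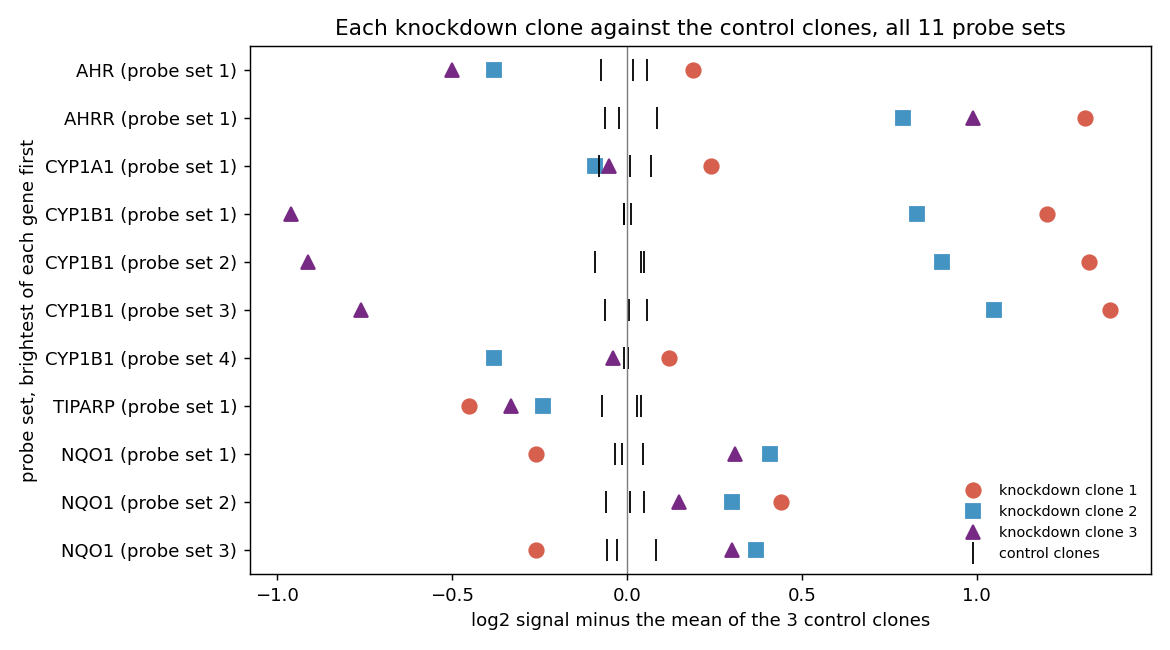
Difference of each knockdown clone from the mean of the 3 control clones (log2, horizontal axis) on all 11 probe sets of the 6 genes. Black ticks are the control clones. The 3 bright probe sets of CYP1B1 place clones 1 and 2 at 0.83 to 1.38 and clone 3 at −0.96 to −0.76, whereas the clones of AHRR lie together at 0.79 to 1.31.

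Across the members, the groups did not overlap on 3 of 11 probe sets, 2 higher (AHRR and 1 of NQO1) and 1 lower (TIPARP). Over all probe sets 9.85% did not overlap with knockdown higher and 11.1% with knockdown lower, 21% in either direction. In the limma fit over all probe sets 1 of the 11, that of AHRR, was called at an adjusted p under 0.05, against 0.558% of all probe sets (0.251% higher and 0.308% lower). AHRR was chosen with that call known, so nothing is read from this count. The call was lost without knockdown clone 2 and without any one of the control clones, where the difference of AHRR was still 1.00 to 1.15. Over all features, 305 probe sets were called with all clones, and 3 to 5 in fits without 1 control clone.

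The genes whose profile over the 6 arrays came nearest to that of AHRR were found by the root mean square difference of profiles centred on their own mean, among 13042 genes with a mean above 5. They were EYA4, a transcriptional coactivator and phosphatase (0.16 log2 units), DNAJC6, the neuronal auxilin of clathrin uncoating (0.17), GCH1, the first enzyme of tetrahydrobiopterin synthesis (0.17), the nucleoporin NUP88 (0.17) and FGFBP3, a fibroblast growth factor binding protein (0.18). Their own differences were 0.84, 0.84, 0.89, 0.81 and 0.70. For CYP1B1 the nearest were the zinc finger gene ZNF107 (0.081), KLHL4 (0.12), the homeobox gene SIX2 (0.15), the interferon-induced oligoadenylate synthetase OAS2 (0.16) and the syndecan SDC2 (0.16). ZNF107 read 6.75, 6.58 and 4.74 in knockdown clones 1, 2 and 3 and 5.54 to 5.58 in control clones. All 5 were above the controls in clones 1 and 2 and below them in clone 3, with knockdown ranges of 1.72 to 2.45. These likenesses rest on 6 arrays. The genes near AHRR and near CYP1B1 were picked by them, so their shared differences and clone orders follow from the selection. Nothing is read from them.

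The genes beside each member on its chromosome were compared with it, taking 5 measured genes on each side where the chromosome held them. Of 59 neighbours 0 were called in limma, against 0.738% of all genes. An unadjusted p under 0.05 was found for 13 of the 59 (9 positive and 4 negative differences), against 16.8% of all genes. No neighbour met the rule for named genes, so those named here were chosen after their values were seen. AHRR lies near the end of chromosome 5 and had 9 such neighbours. RefSeq also annotates a readthrough noncoding transcript, PDCD6-AHRR, over the gene, and the probe set cannot tell the 2 apart. On one side PDCD6, a calcium-binding protein gene whose start lies next to it in gene order, gave −0.09 (SE 0.14), and SDHA, a subunit of succinate dehydrogenase, gave 0.08 (SE 0.08). Further out on that side PLEKHG4B was at −0.64 with the knockdown clones all below the controls (SE 0.26, limma adjusted p = 0.333), the largest difference among these neighbours. On the other side EXOC3-AS1 gave 0.41 (SE 0.08, limma adjusted p = 0.0898), EXOC3, an exocyst subunit, 0.12 (SE 0.10) and SLC9A3-AS1 0.46 (SE 0.10, limma adjusted p = 0.0979). The 9 neighbours had a median of 0.12, and 6 were above 0. Beside NQO1, 8 of 10 neighbours were above 0 with a median of 0.21, among them CYB5B at 0.29 (limma adjusted p = 0.173), where NQO1 was at 0.15 on its brightest probe set. Beside CYP1B1, 7 of 10 neighbours were above 0 with a median of 0.28, among them QPCT, a glutaminyl cyclase, at 0.47 (limma adjusted p = 0.277). Beside AHR the neighbour SNX13, a sorting nexin, was at −0.70 (limma adjusted p = 0.139) and LOC101927609 at −0.81 (limma adjusted p = 0.0644). In the other direction HDAC9, a histone deacetylase, was at 0.48 with every knockdown clone above every control, and TSPAN13, a tetraspanin, was at 0.38, and 2 of the 10 neighbours of AHR were above 0. Without knockdown clone 1, SNX13 (−0.91), LOC101927609 (−0.96) and SLC9A3-AS1 (0.53) passed. Without clone 3, TSPAN13 beside AHR (0.69), GALM beside CYP1B1 (0.67) and LOC101927609 (−0.73) passed. Calls over all probe sets rose in these fits from 305 to 1465 without clone 1 and 2493 without clone 3.

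**Figure D3:**
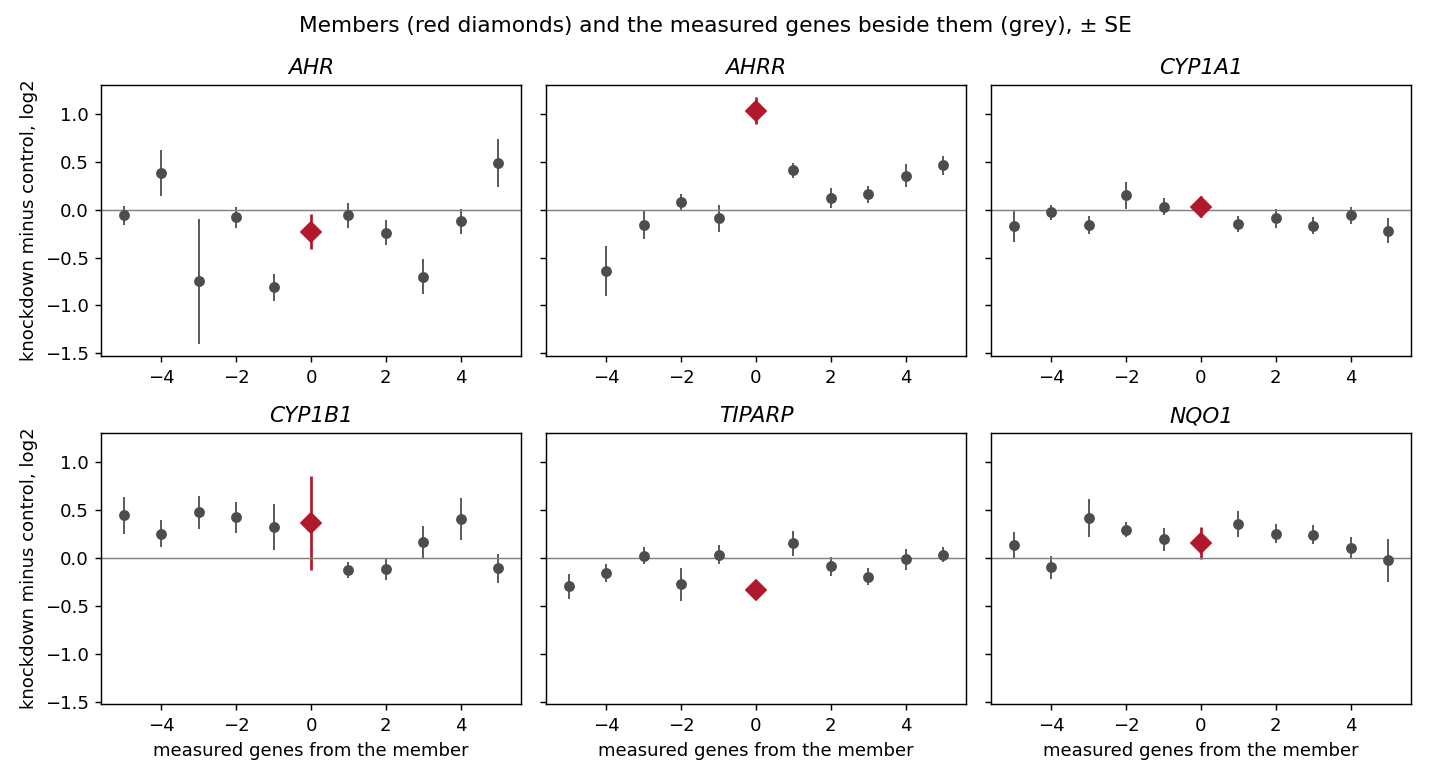
Knockdown minus control difference (log2, vertical axis, ± SE) of each member (red diamond, position 0) and of the measured genes next to it in chromosome order (grey; horizontal axis, number of measured genes away). AHRR, at 1.03, lies above all 9 of its neighbours, which reach 0.46, while NQO1 lies within the span of its own.

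The other genes of the pathway were taken from 8 lists with 105 genes, of which 96 were measured on probe sets with a single symbol. None was called in limma over all probe sets, where 0.738% of all genes were. An unadjusted p under 0.05 was found for 11 with a positive and 16 with a negative difference, and for 16.8% of all genes, and the list medians ran from −0.13 to 0.20 with a median of −0.011 over all genes. Leaving out 1 knockdown clone changed the counts: 7 genes passed without clone 1 and 11 without clone 3, and 0 without clone 2. Over all probe sets these fits called 1465, 2493 and 33, in the same order, against 305 with all clones.

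Of the receptor's complex and dimer partners 5 of 6 genes were measured, 4 with a positive and 1 with a negative difference. PTGES3, the p23 co-chaperone, gave −0.30 (SE 0.11, limma adjusted p = 0.269), and HSP90AA1, the inducible HSP90, gave 0.22 (SE 0.10, limma adjusted p = 0.378). ARNT, named here because AHR and AHRR both bind it, read 6.53, 6.47 and 6.69 in knockdown and 6.32, 6.38 and 6.37 in control clones (0.20, SE 0.09, limma adjusted p = 0.385), and 5 of its 7 probe sets had that sign. Of 10 measured cofactor and turnover genes, the coactivator NCOA1 gave 0.34 (SE 0.14, limma adjusted p = 0.319) and the chromatin remodeller SMARCA4 0.19 (SE 0.09, limma adjusted p = 0.387). NCOA1 passed without knockdown clone 3 (0.47).

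Among 11 other bHLH-PAS genes, which include further partners of ARNT, the hypoxia factor EPAS1 had the largest negative difference. It read 9.57, 9.22 and 9.15 in knockdown clones 1, 2 and 3 and 9.96 to 9.99 in control clones (−0.67, SE 0.12, limma adjusted p = 0.0698), and it passed without knockdown clone 1 (−0.79) or 3 (−0.58). HIF1A, its paralogue, read 12.52 to 12.71 in knockdown and 12.21 to 12.23 in control clones (0.42, SE 0.09, limma adjusted p = 0.0978). These subunits of the hypoxia factors thus lay on opposite sides of the controls, with no overlap in either.

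Of 12 measured further AHR targets 5 were above and 7 below 0. The cyclin CCNG2 gave −0.29 (SE 0.10, limma adjusted p = 0.247) with the same sign on its 5 probe sets, and the glucuronosyltransferase UGT1A6, whose gene shares exons with other UGT1A genes, gave −0.26 (SE 0.09, limma adjusted p = 0.278) at a level of 3.09 to 3.51. CYP1A2, the paralogue of CYP1A1, gave −0.15 (SE 0.08, limma adjusted p = 0.470), and was named after its value was seen. Of the NRF2 antioxidant genes, to which NQO1 is related by regulation, 22 of 24 were measured, 10 above and 12 below 0. GCLC, the catalytic subunit of glutathione synthesis, read 8.41 to 8.51 in knockdown and 7.88 to 8.20 in control clones (0.45, SE 0.11, limma adjusted p = 0.122). PGD, an enzyme of the pentose phosphate pathway, read 8.94 to 9.32 against 9.54 to 9.57 (−0.48, SE 0.12, limma adjusted p = 0.133), but only 1 of its 3 probe sets had that sign.

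The tryptophan and kynurenine enzymes, of a pathway that yields AHR ligands, included KYAT3, a kynurenine aminotransferase, at 0.55 (SE 0.18, limma adjusted p = 0.241). AADAT, another aminotransferase, was at 0.41 (SE 0.14, limma adjusted p = 0.261), and 7 of the 11 genes on this list were below 0. Of 15 PARP relatives of TIPARP 10 were above 0. The tankyrase TNKS2 gave 0.54 (SE 0.10, limma adjusted p = 0.0793) and PARP14, an interferon-responsive mono-ADP-ribosyltransferase, gave −0.65 (SE 0.19, limma adjusted p = 0.191). Among 10 measured P450 genes and their reductase, the vitamin D hydroxylase CYP2R1 gave 0.48 (SE 0.10, limma adjusted p = 0.102). POR, the electron donor of CYP1A1 and CYP1B1, read 8.16, 7.59 and 7.28 in knockdown clones 1, 2 and 3 and 8.46 to 8.53 in control clones (−0.82, SE 0.20, limma adjusted p = 0.134). POR was lowest in clone 3, where CYP1B1 was also lowest, and passed without clone 1 (−1.06). In clones 1 and 2 the genes went opposite ways, with POR at 79% and 53.4% of the control mean and CYP1B1 above it.

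**Figure D4:**
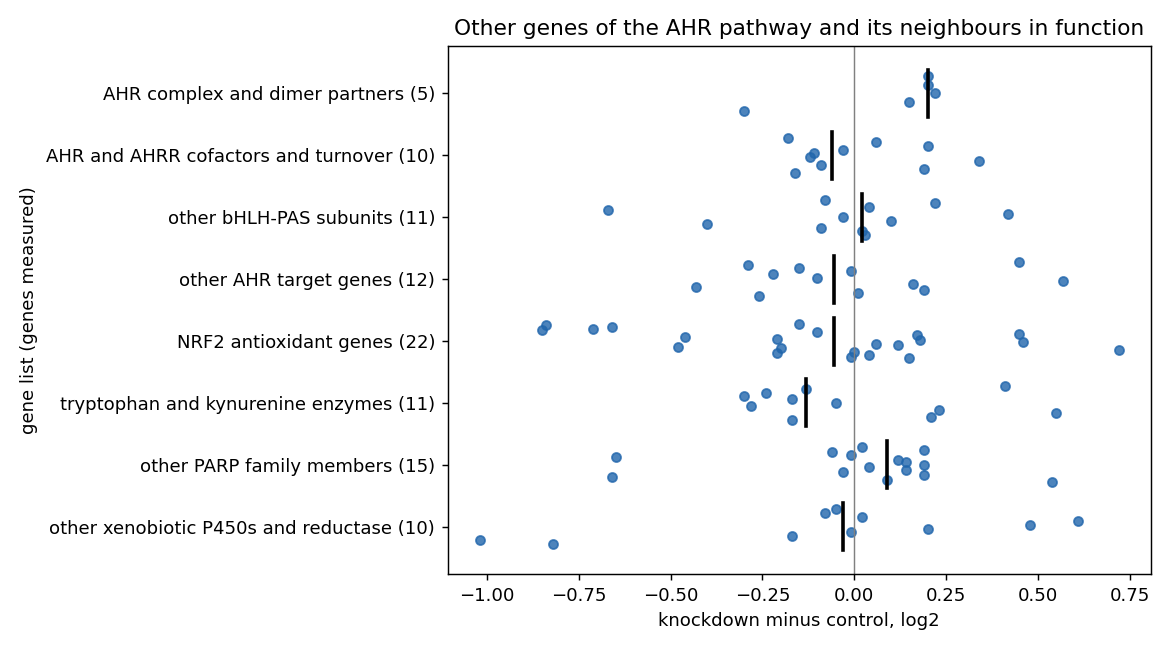
Knockdown minus control difference (log2, horizontal axis) of each measured gene in the 8 pathway lists (vertical axis, number of genes in brackets). Each point is 1 gene and black bars are list medians, which lie between −0.13 and 0.20 with genes on both sides of 0 in each list.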

How the data were processed

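The authors deposited 1 table of log2 values for 54675 probe sets on 6 arrays, which the submitters' processing notes credit to RMA and Affymetrix Expression Console 1.0; 0 columns belonged to other samples. RMA sets all arrays to 1 distribution (medians 5.13 to 5.17), so a global shift is removed, and 3 arrays per group limit precision. Scanner files were not analysed here.

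Probe sets were named from the platform annotation with symbols updated through RefSeq: 41091 had 1 symbol (41037 matched by identifier), 1801 several and 11721 none. Those with several named no gene. limma 3.58.1 (lmFit and eBayes, R 4.3.3) was fitted with group as the only term on 54613 probe sets, 62 control probe sets being left out. Tests were two-sided, adjusted by Benjamini-Hochberg over all of them. The fit was tested on simulated data with equal spread in both groups. That test does not cover the unequal spread of these data, given below. A gene was represented by its brightest probe set (19775 genes). Members and lists were chosen with earlier results of these data known. Named by rule were all members, WASF3, up to 4 called genes or else the 2 of smallest p in each list, called neighbours and the 5 nearest profiles.

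Alternatives left out each clone, blocked on clone number, centred arrays on their median, added the end index (3′ minus 5′ control signal), used an intensity trend, averaged probe sets, or dropped dim (mean log2 not above 5) or x and s probe sets. The limma p-values set the group difference against the spread between clones within groups, pooled over both groups. That spread was unequal, with a median range of 0.38 in knockdown and 0.14 in control clones on probe sets above 5.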

Additional observations from a re-analysis of the deposited data

How the results depend on the processing

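Only the end index, used as covariate, moved members by more than their spread within groups: AHR to −0.71, AHRR to 0.64, CYP1A1 to −0.24, CYP1B1 to −0.56 (0.36 without it), TIPARP to −0.15 and NQO1 to 0.61 on their brightest probe sets. The NQO1 probe set without overlap instead fell from 0.30 to 0.09. Leaving out 1 clone gave −0.44 to −0.09 for AHR, 0.89 to 1.15 for AHRR, −0.07 to 0.09 for CYP1A1, −0.06 to 1.01 for CYP1B1, −0.39 to −0.28 for TIPARP and 0.03 to 0.36 for NQO1. The adjusted p of AHRR (0.0378 in limma) was 0.0648 without knockdown clone 2, 0.242 to 0.274 without a control clone and 0.245 with the index. The clone numbers do not pair samples (correlations of same-numbered deviations −0.12, −0.13 and −0.06); with the replicate block AHRR was 1.03 (adjusted p = 0.152) and 6 probe sets were called in all. The 305 calls became 3 to 2493 without 1 clone, 1 with the index and 115 with an intensity trend. List counts of 0 became 0 to 1 (cofactors, bHLH-PAS, tryptophan enzymes, PARP), 0 to 3 (AHR targets, NRF2, P450) and 0 to 3 (neighbours) without 1 clone, and stayed 0 in the 7 other settings. WASF3 ranged from −1.63 to −0.99 (passing without knockdown clone 3) without 1 clone. No row without x and s probe sets exists for CYP1B1 and NQO1, which have no others.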

Other observations

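Some pathway genes outside the naming rule, singled out after their values were seen, also set knockdown clone 3 apart from clones 1 and 2. Their patterns against the controls were not all that of CYP1B1. The aldo-keto reductases AKR1C1, AKR1C2 and AKR1C3, enzymes of steroid and carbonyl reduction, were lower in clones 1 and 2 than in clone 3. Clone 3 was nearer the controls, at 95.6%, 84.7% and 95.6% of the control mean for these genes in turn. AKR1C3 read 8.22, 8.62 and 9.61 in knockdown clones 1, 2 and 3 and 9.61 to 9.74 in control clones, and AKR1C1 read 6.92, 6.66 and 7.68 against 7.71 to 7.77. With all clones the differences were −0.85 (AKR1C3), −0.66 (AKR1C1) and −0.71 (AKR1C2), and none was called (limma adjusted p = 0.279, 0.274 and 0.174). Without clone 3 they were −1.25, −0.95 and −0.94 and passed, in a fit that called 2493 probe sets against 305 with all clones. Nothing is read from that pass, because these genes were picked for the difference of clone 3. Their near-identical sequences make the separate values uncertain. ALDH3A1, an aldehyde dehydrogenase of the AHR battery, read 6.23, 6.61 and 5.18 in knockdown clones 1, 2 and 3 and 5.46 to 5.70 in control clones. PTGS2, the inducible cyclooxygenase, had the opposite order, at 4.82, 4.51 and 6.65 against 5.54 to 5.90. The cystine transporter SLC7A11, an NRF2 target, was highest in clone 3, at 8.31, 8.70 and 9.59 against 8.10 to 8.18. CYP3A5, a steroid-oxidising P450, instead set clone 1 apart, at 5.97, 4.35 and 4.47 against 5.79 to 6.03.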
